A study of Mus musculus with 6 samples.

Results

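The genes described here are 36 mouse genes of the endoplasmic reticulum (ER) stress response and the heat shock chaperones. They were taken from a list of named members: the sensors and outputs of the unfolded protein response, targets of the transcription factor ATF4, and the cytosolic and mitochondrial heat shock proteins. All 36 were found among the 34866 genes of the count table by matching Ensembl identifiers to symbols, and 35 of them were among the 13374 genes with enough counts to be tested. The remaining member, Chac1, fell below the filter on low counts. The list was split into 6 compartments, which are described apart: 4 ER sensors and transducers, 11 ER lumenal chaperones and folding enzymes, 3 genes of ER-associated degradation, ATF4 and 4 of its targets, 10 cytosolic heat shock genes and 3 mitochondrial chaperones.

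The libraries came from effector memory CD4+ T cells of the spleens of mice lacking the interleukin-1 receptor antagonist gene Il1rn (Il1rnKO, 3 libraries) and of wild-type mice (WT, 3 libraries). Both genotypes shared the tissue, the cell type and the library preparation, and no treatment is named for either. The sources used here name neither the strain, age or sex of the mice, nor the knockout allele, nor the gates of the cell sort. The labels do not say whether the 3 libraries of a genotype came from separate animals, so each p-value rests on the spread among 3 libraries a genotype, which may be technical.

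Proteins that are secreted or inserted into membranes fold in the ER, where chaperones, disulfide isomerases and lectins assist them. When unfolded proteins accumulate there, the sensors IRE1 (encoded by Ern1), ATF6 and PERK (encoded by Eif2ak3) start the unfolded protein response: IRE1 splices Xbp1 mRNA, ATF6 is cut to release a transcription factor, and PERK phosphorylates a translation initiation factor, which favours translation of Atf4. In the cytosol, heat shock factor 1 (Hsf1) induces the HSP70 and HSP90 chaperones and their J-domain partners, while the mitochondrial matrix has its own chaperonin and HSP70. Activated T cells are known to use this machinery as they begin to divide and to secrete cytokines. Gene-level counts measure transcript amount alone and hold no information on Xbp1 splicing, ATF6 cleavage or phosphorylation.

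Several members carry the letters of known response elements close to their start sites, which are shown here because they are the sequences read by the regulators named above. Promoter windows of 250 bases before and 50 bases after the annotated start were available from RefSeq (GRCm38.p6) for 29 of the 36 members, in 35 windows. The ER stress element is a CCAAT box that binds NF-Y, followed at a fixed distance by CCACG, the part read by ATF6 and XBP1. Its full pattern is CCAAT and CCACG with 9 free bases between them on either strand. It was present in 6 of the 35 member windows, from 6 of the 29 members, and in 0.119% of all 32851 windows. Capitals mark the fixed letters of the pattern and lower case the free spacer, each written 5′ to 3′ in the direction of the pattern. Coordinates are those of GRCm38.p6.
Hspa5, chr2:34772025-34772043, gene on the + strand: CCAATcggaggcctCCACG
Hsp90b1, chr10:86705638-86705656, gene on the - strand: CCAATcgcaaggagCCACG
Hsp90b1, chr10:86705533-86705551, gene on the - strand: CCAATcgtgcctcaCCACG
Calr, chr8:84847075-84847093, gene on the - strand: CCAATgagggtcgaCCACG
Canx, chr11:50325800-50325818, gene on the - strand: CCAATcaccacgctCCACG
Creld2, chr15:88819520-88819538, gene on the + strand: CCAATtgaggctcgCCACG
Pdia6, chr12:17266491-17266509, gene on the + strand: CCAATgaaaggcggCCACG
All 6 genes with the element encode ER lumenal or ER membrane folding proteins, and Hsp90b1 carried it at 2 places in the same window. The pattern read along the gene in Hspa5, Canx, Pdia6 and the first Hsp90b1 entry, and on the opposite strand in Calr, Creld2 and the second Hsp90b1 entry. CCAAT alone, which lies within the longer pattern, was found in 25 of the 35 member windows (23 of the 29 members) and in 37.4% of all windows.

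The compact form of the element is ATTGG and CCACG with 1 free base between them on either strand. It was present in 1 of the 35 member windows, that of Herpud1, and in 0.0365% of all windows. The ATF4 element, TGATGNAA on either strand, was present in 4 of the 35 member windows (Asns, Chac1, Herpud1 and Trib3) and in 3.97% of all windows. The heat shock pattern, GAA, TTC and GAA with 2 free bases between neighbours on either strand, is the alternating unit read by HSF1. It was present in 4 of the 35 member windows, from Hspd1, Hspe1 and Hsph1, and in 0.603% of all windows. The windows of Hspa1a, Hspa1b, Dnaja1, Dnajb1 and Dnajb4 held no match to this exact pattern, and other forms of the heat shock element were not searched for. The Trib3 match lay 14 bases after the start and the Hsph1 match 15 or 36 bases after it, depending on the window. All matched elements are shown with the fixed letters of each pattern in capitals.
Herpud1 compact ER stress element: ATTGGgCCACG
Herpud1 ATF4 element: TGATGcAA
Chac1 ATF4 element: TGATGcAA
Asns ATF4 element: TGATGaAA
Trib3 ATF4 element: TGATGtAA
Hspe1 heat shock element: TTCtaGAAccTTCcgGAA
Hspd1 heat shock element: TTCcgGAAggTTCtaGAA
Hsph1 heat shock element: GAActTTCcaGAA
The Hspe1 and Hspd1 entries are the same 18 bases, at chr1:55088059-55088076, read on the + strand for Hspe1 and on the - strand for Hspd1. These genes encode the HSP10 and HSP60 subunits of the mitochondrial chaperonin, lie head to head and share this stretch of promoter. A match describes letters in a window and was not tested as a binding site.

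The libraries held 14102183 to 17677217 estimated counts each, and levels are given as CPM, which are counts scaled to the TMM-adjusted size of the library, with 1 CPM standing for 12.9 to 18.2 counts. Il1rn had 1, 3 and 1 counts in the Il1rnKO libraries, against 6, 10 and 0 in the WT libraries, too few to check the genotype labels. The 10 CD4+ T cell markers summed to 5109 to 6003 CPM in Il1rnKO and 5441 to 5756 CPM in WT, with Cd4 itself at 1145, 1039.5 and 1103 CPM in the Il1rnKO libraries, against 1214, 975 and 1054 CPM in the WT libraries. Neutrophil markers summed to 36.8 to 117 CPM in Il1rnKO and 4.49 to 7.14 CPM in WT, with 8 of 10 tested and a positive fold change in all 8, and their granule gene Ngp was at 0 in every WT library. Mitochondrially encoded transcripts took 3.69%, 3.44% and 8.34% of counts in Il1rnKO 1, 2 and 3, against 5.68%, 7.32% and 8.92% in WT 1, 2 and 3. The part of these differences in the chaperone values below was not tested except where a value is given. In these bulk libraries, fewer cells of a type and less RNA per cell cannot be told apart.

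None of the 35 tested members passed the threshold between Il1rnKO and WT cells, and most were measured closely enough to bound the difference. In edgeR's quasi-likelihood test, adjusted with Benjamini-Hochberg over all tested genes, 0 of 35 were called at an adjusted p under 0.05, against 0.0523% of all tested genes, and the members' adjusted p ran from 0.988 to 0.998. DESeq2 and limma voom with quality weights also called 0 of them. At an unadjusted p under 0.05, edgeR counted 3 members, all lower in Il1rnKO, against 4.08% of all tested genes in either direction and 1.54% on the lower side. DESeq2 counted 1 member at that p, against 3.49% of all genes it gave a p, and limma voom counted 8, against 12.1% of all tested genes. The 95% interval of the fold change stayed within 2-fold in either direction for 30 of the 35, against 64.6% of all tested genes. The 5 whose intervals reached past 2-fold were Ddit3, Trib3, Asns, Hspa1a and Hspa1b.

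The fold changes of the members leaned to the lower side without a call. The log2 fold change (Il1rnKO over WT) was negative for 24 of 35 members, 68.6%, against 47.4% of all tested genes, and its median was -0.05 against 0.02 over all tested genes. Across the alternative settings, 21 to 24 members were negative. The median coefficient of biological variation was 0.173 over the members and 0.215 over all tested genes. Ranges of the 2 genotypes did not overlap for 2 members, Dnajb9 and Dnajb4, both lower in Il1rnKO, where 3.63% of all tested genes were lower without overlap. No member was higher without overlap, against 5.78% of all tested genes.

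**Figure D1:**
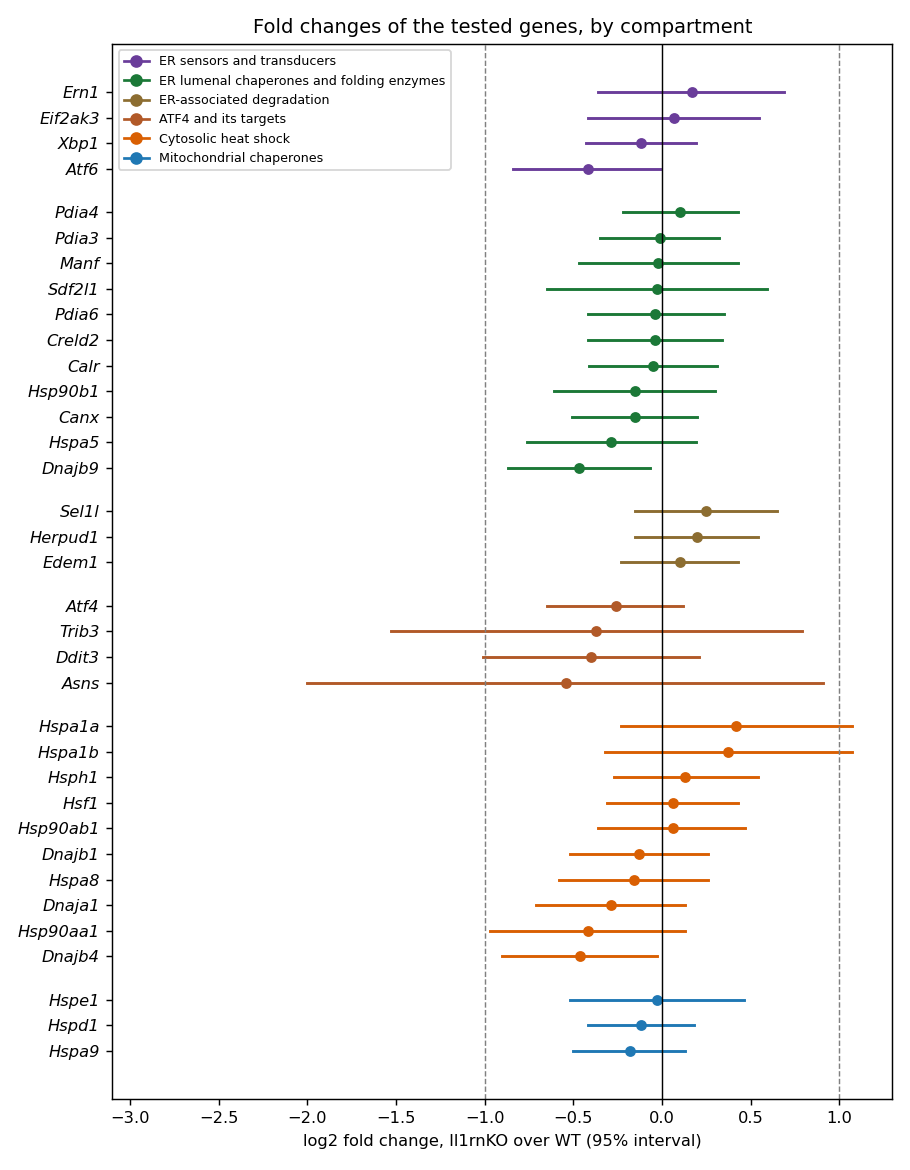
Log2 fold change of each of the 35 tested genes, Il1rnKO over WT, with its 95% interval from edgeR, grouped by compartment and coloured by it. Points left of 0 are lower in Il1rnKO, dashed lines mark 2-fold, and the intervals of Dnajb9, Dnajb4 and Atf6 end just below 0 while those of Trib3 and Asns are the widest.

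The 36 members together made up 0.942% of all counts. Their summed level was 8684, 8182 and 10014 CPM in the Il1rnKO libraries, against 8991, 10749 and 10073 CPM in the WT libraries. Il1rnKO 3 reached the level of the WT libraries, while Il1rnKO 1 and 2 lay below all 3 of them, and the sums of the genotypes overlapped. The means were 8960.2 ± 947 CPM in Il1rnKO and 9938 ± 887 CPM in WT (SD, n = 3 each). Il1rnKO 3 was the highest Il1rnKO library for 24 of the 35 tested members, 68.6%, against 36.8% of all tested genes, and it had the highest mitochondrial share of the Il1rnKO libraries. Among WT libraries the highest was WT 2 for 17 members (28.0% of all tested genes), WT 3 for 11 (36.7%) and WT 1 for 7 (35.3%).

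The number of members with a small p moved when single libraries were left out. In edgeR the count at an unadjusted p under 0.05 was 3 with all libraries and 9 without Il1rnKO 3, of which 8 were lower, and in that fit the share of all tested genes was 13.4%. It was 5 without WT 1 (5.71% of all tested genes), 0 without Il1rnKO 1 (2.93%), 1 without WT 2 (2.95%) and 1 without WT 3 (3.29%). With the mitochondrial share as a covariate it was 2 (6.32% of all tested genes). No member was called in any of these fits.

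**Figure D2:**
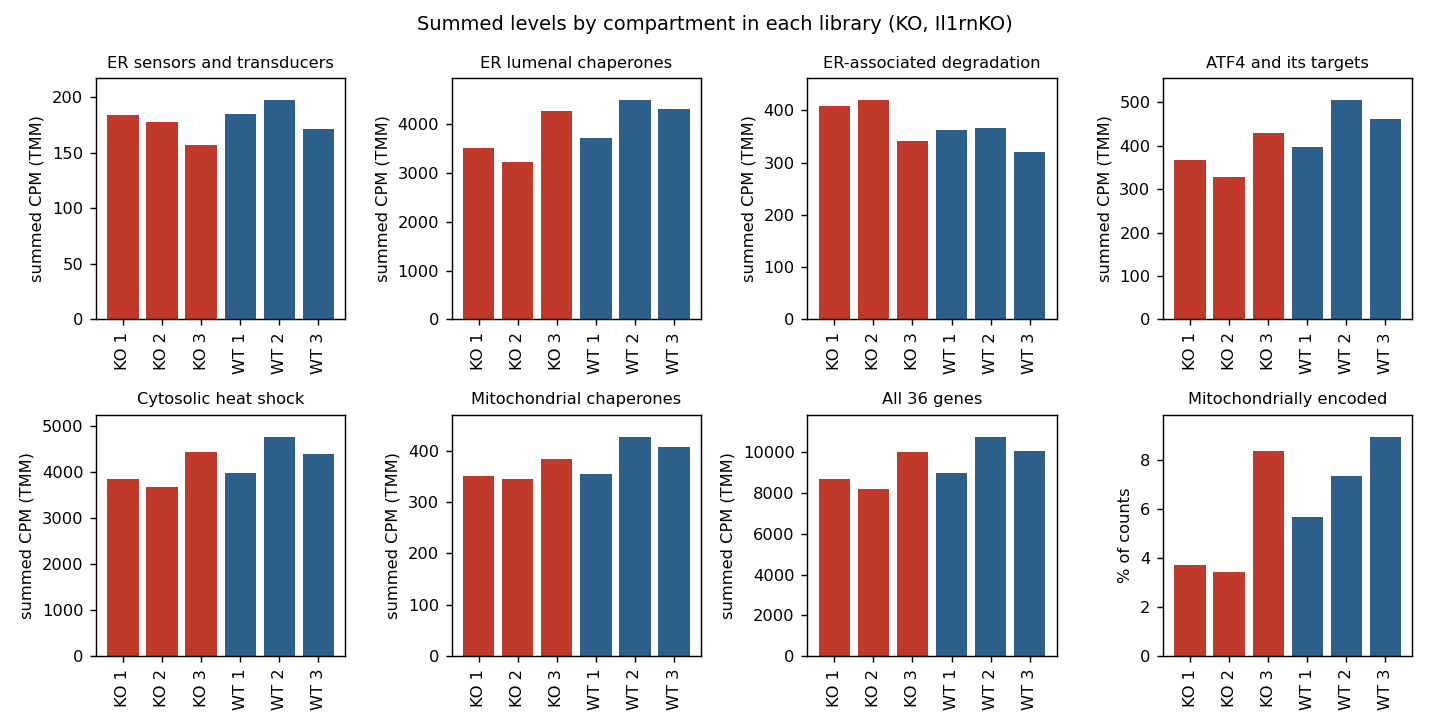
Summed level of each compartment in every library, in CPM, with a bar for each library, Il1rnKO left of WT, and further panels for all 36 genes and for the percent of counts from mitochondrially encoded genes. In the ER lumenal and cytosolic panels Il1rnKO 3 lies near the WT libraries and Il1rnKO 1 and 2 lie lower, and in the panel for ER-associated degradation Il1rnKO 1 and 2 lie above every WT library.

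Compared per length, as CPM per kilobase of exon, the most abundant member transcripts were cytosolic HSP90 and HSP70 and the ER HSP70. Hsp90ab1, the constitutive HSP90, averaged 411 ± 45.6 CPM per kilobase in Il1rnKO and 395 ± 48.2 in WT, and Hspa5, which encodes the ER chaperone BiP, averaged 334 ± 63.7 CPM per kilobase in Il1rnKO and 407 ± 62.9 in WT. These neighbours in the order did not differ beyond their spread. Hspa8, the constitutive HSP70, averaged 212 ± 36.1 CPM per kilobase in Il1rnKO and 237 ± 22.7 in WT, and Hsp90aa1, the inducible HSP90, averaged 189 ± 58.6 CPM per kilobase in Il1rnKO and 253 ± 52.9 in WT, again within their spread of each other. The sensor Ern1 and the ATF4 targets Trib3 and Asns lay at the low end: Ern1 averaged 2.79 ± 0.830 CPM per kilobase in Il1rnKO and 2.49 ± 0.170 in WT, Trib3 1.11 ± 0.445 CPM per kilobase in Il1rnKO and 1.44 ± 0.360 in WT and Asns 0.747 ± 0.655 CPM per kilobase in Il1rnKO and 1.09 ± 0.223 in WT. Over all 6 libraries, the highest value was less than 1.5 times the lowest for 15 members and over 2 times for 5, the same 5 that had the widest intervals.

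**Figure D3:**
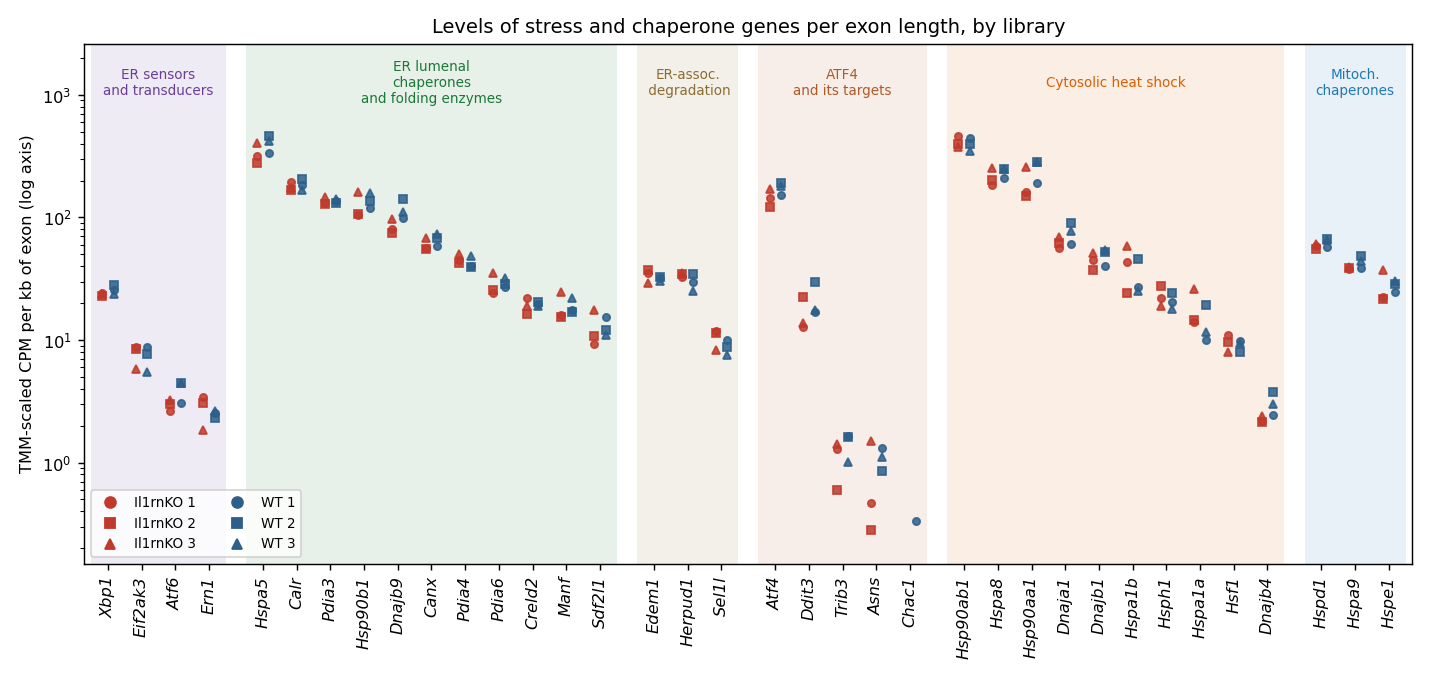
Level of each of the 36 genes per length, in CPM per kilobase of exon on a log axis, with a point for each library, Il1rnKO left of WT within a gene, and genes ordered by level within each shaded compartment; libraries at 0 counts, which occur for Chac1, are not drawn. Hsp90ab1 and Hspa5 are at the top of the scale, and the ranges of the genotypes overlap for all 35 tested genes except Dnajb9 and Dnajb4.

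Among the sensors and transducers that start the unfolded protein response, none passed the test, and the value of Atf6 was the lowest relative to WT. Atf6, whose cleaved product activates ER chaperone genes, had 24.3, 28.0 and 29.8 CPM in the Il1rnKO libraries, against 28.4, 40.8 and 40.8 CPM in the WT libraries. WT 1 lay inside the Il1rnKO range and WT 2 and WT 3 above it. The log2 fold change was -0.42 with an SE of 0.19 and a 95% interval of -0.84 to -0.01 (edgeR, unadjusted p = 0.0474, adjusted p = 0.988), and it was -0.27 with the mitochondrial share as a covariate.

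Xbp1, the transcription factor whose mRNA IRE1 splices, had 79.3, 73.9 and 77.6 CPM in the Il1rnKO libraries, against 82.5, 91.8 and 76.4 CPM in the WT libraries. The ranges overlapped and the log2 fold change was -0.12 (SE 0.14), with a 95% interval of -0.43 to 0.19. Ern1, which encodes the IRE1 sensor itself, averaged 22.8 ± 6.78 CPM in Il1rnKO and 20.3 ± 1.39 CPM in WT, with the lowest value of all libraries in Il1rnKO 3. Eif2ak3, which encodes the PERK kinase, averaged 46.1 ± 9.97 CPM in Il1rnKO and 44.0 ± 10.3 CPM in WT and ranged from 32.8 CPM in WT 3 to 53.0 CPM in WT 1. Their log2 fold changes were 0.17 (SE 0.24) and 0.07 (SE 0.22), and both turned negative with the mitochondrial share as a covariate.

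Of the 11 ER lumenal chaperones and folding enzymes, 10 had a lower fitted level in Il1rnKO cells, by small amounts, and none was called. Their median log2 fold change was -0.04, and it was -0.26 without Il1rnKO 3, the library with the highest level in the Il1rnKO group for 9 of the 11. With the mitochondrial share as a covariate, 5 of the 11 were negative and the median was 0.05, with Hsp90b1, Sdf2l1, Pdia3, Pdia6 and Manf turned positive. The compartment summed to 3515, 3230.0 and 4265 CPM in the Il1rnKO libraries, against 3709, 4486 and 4309 CPM in the WT libraries. Il1rnKO 1 and 2 lay below every WT library, and Il1rnKO 3 lay among them. Plasma cells are rich in these proteins. Their 10 markers summed to 109 to 132 CPM in Il1rnKO and 113 to 169 CPM in WT, and 6 had enough counts to be tested. Irf4 was the largest term in every library, at 62.8 to 65.7 CPM in Il1rnKO and 64.6 to 111 CPM in WT. Of the 6, 4 had negative log2 fold changes, while Igkc (0.88, SE 0.75) and Jchain (0.43, SE 0.92) were positive. Igkc had 10.8, 2.76 and 19.5 CPM in the Il1rnKO libraries, against 12.5, 1.42 and 3.95 CPM in the WT libraries. Tnfrsf17 was at 0 in all 6 libraries, Sdc1 at 0 to 0.62 CPM and Mzb1 at 0 to 0.372 CPM. The part of plasma cells in the chaperone values was not tested.

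Hspa5 encodes BiP, the HSP70 of the ER that also holds the sensors inactive, and is the member with the best described ER stress element. Its 250 bases before the start lie on the + strand at chr2:34771840-34772089 (GRCm38.p6), with the full element in capitals.
Hspa5 upstream: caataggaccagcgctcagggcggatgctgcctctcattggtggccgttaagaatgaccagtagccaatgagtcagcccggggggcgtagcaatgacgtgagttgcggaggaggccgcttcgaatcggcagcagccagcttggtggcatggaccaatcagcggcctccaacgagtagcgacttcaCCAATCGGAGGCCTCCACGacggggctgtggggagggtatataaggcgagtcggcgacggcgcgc
Hspa5 had 1353, 1176 and 1705 CPM in the Il1rnKO libraries, against 1431, 1954 and 1778 CPM in the WT libraries. Il1rnKO 2 was the lowest library and WT 2 the highest, and Il1rnKO 3 lay between WT 1 and WT 3. This gave a log2 fold change of -0.29 (SE 0.21), with a 95% interval of -0.76 to 0.19, and edgeR's adjusted p was 0.988.

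Dnajb9 had the smallest p of all members. It encodes ERdj4, a J-domain cochaperone of BiP that is known as a target of XBP1. Its upstream window lies on the - strand at chr12:44210069-44210318 (GRCm38.p6) and is shown because of that p, in lower case throughout, since the full patterns above had no match in it.
Dnajb9 upstream: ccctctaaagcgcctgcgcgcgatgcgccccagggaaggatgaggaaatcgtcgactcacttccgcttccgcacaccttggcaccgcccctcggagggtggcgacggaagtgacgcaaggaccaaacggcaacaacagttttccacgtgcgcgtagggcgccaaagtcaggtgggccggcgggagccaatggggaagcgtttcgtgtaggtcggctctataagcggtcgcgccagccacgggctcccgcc
Dnajb9 had 206, 191 and 247 CPM in the Il1rnKO libraries, against 250.3, 359 and 282 CPM in the WT libraries. All 3 Il1rnKO libraries lay below all 3 WT libraries, though Il1rnKO 3 and WT 1 were close. The means were 215 ± 29.4 CPM in Il1rnKO and 297 ± 56.0 CPM in WT (SD, n = 3 each). The log2 fold change was -0.47 (SE 0.18; 95% interval -0.87 to -0.07; edgeR, unadjusted p = 0.0249, adjusted p = 0.988), so the difference did not pass the threshold over all genes. Leaving out 1 library at a time gave log2 fold changes from -0.61 to -0.31, the smallest without WT 2. A microRNA gene, Mir5627, overlaps Dnajb9 exons on the other strand, and the sources used here do not say whether reads were counted by strand.

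Hsp90b1 encodes GRP94, the HSP90 of the ER, and averaged 500.5 ± 125 CPM in Il1rnKO and 556 ± 74.7 CPM in WT, with a log2 fold change of -0.15 (SE 0.21). The lectin chaperones that hold glycoproteins during folding were Calr, at 516 ± 42.1 CPM in Il1rnKO and 533 ± 53.6 CPM in WT, and its membrane-bound relative Canx, at 281 ± 32.3 CPM in Il1rnKO and 312 ± 33.3 CPM in WT. Their log2 fold changes were -0.05 (SE 0.16) and -0.15 (SE 0.16). Both genes carry the full ER stress element, as Hspa5 does.

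The protein disulfide isomerases, which form and rearrange disulfide bonds, had fold changes near 0 and none was called. Pdia3, which works with calreticulin and calnexin, averaged 425 ± 32.9 CPM in Il1rnKO and 429 ± 13.8 CPM in WT, a log2 fold change of -0.01 (SE 0.15). Pdia4 was the single lumenal member with a positive value, 0.10 (SE 0.15), and averaged 109.8 ± 8.81 CPM in Il1rnKO and 102 ± 11.5 CPM in WT. Pdia6 averaged 106 ± 22.9 CPM in Il1rnKO and 109 ± 9.17 CPM in WT, and its log2 fold change was -0.04 (SE 0.17).

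Among the smaller ER stress targets, Manf, a secreted factor that binds BiP, averaged 65.6 ± 18.03 CPM in Il1rnKO and 66.5 ± 9.14 CPM in WT. Creld2, an ER protein with isomerase activity, averaged 26.1 ± 3.92 CPM in Il1rnKO and 26.8 ± 0.986 CPM in WT. Sdf2l1, a partner of the ER J-domain proteins, averaged 13.9 ± 4.94 CPM in Il1rnKO and 14.2 ± 2.60 CPM in WT, with its highest value in Il1rnKO 3 and its lowest in Il1rnKO 1. Their log2 fold changes lay between -0.04 and -0.02, with SEs of 0.17 to 0.28.

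The 3 genes of ER-associated degradation, which returns misfolded proteins to the cytosol for the proteasome, all had positive fold changes, and none was called. Their median log2 fold change was 0.20. With the mitochondrial share as a covariate it was 0.01, with Edem1 at -0.03. The 3 summed to 408, 419 and 341 CPM in the Il1rnKO libraries, against 362, 366 and 320.4 CPM in the WT libraries. Il1rnKO 1 and 2 lay above every WT library and Il1rnKO 3 between WT 3 and WT 1.

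Sel1l, the adaptor of the HRD1 ubiquitin ligase, had 102, 96.8 and 70.5 CPM in the Il1rnKO libraries, against 85.9, 74.8 and 64.9 CPM in the WT libraries. The highest value was in Il1rnKO 1, and Il1rnKO 3 lay below WT 1 and WT 2, so the ranges overlapped. The log2 fold change was 0.25 (SE 0.18), with a 95% interval of -0.15 to 0.65, and it was 0.01 with the mitochondrial share as a covariate. Herpud1, a membrane protein of the same ligase complex, carries both the compact ER stress element and an ATF4 element within its 250 upstream bases, on the + strand at chr8:94386179-94386428 (GRCm38.p6).
Herpud1 upstream: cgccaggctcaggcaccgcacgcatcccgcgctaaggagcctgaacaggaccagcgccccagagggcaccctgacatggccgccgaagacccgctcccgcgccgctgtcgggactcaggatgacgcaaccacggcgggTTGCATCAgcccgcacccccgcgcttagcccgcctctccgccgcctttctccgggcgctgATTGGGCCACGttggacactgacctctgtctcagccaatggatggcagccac
The first run of capitals is the ATF4 element, which reads as the pattern on the other strand, and the second is the compact ER stress element. Herpud1 averaged 79.8 ± 3.01 CPM in Il1rnKO and 69.6 ± 10.9 CPM in WT, with a log2 fold change of 0.20 (SE 0.16). Edem1, a mannosidase-like protein that marks glycoproteins for degradation, averaged 220.0 ± 28.2 CPM in Il1rnKO and 205 ± 7.29 CPM in WT, with a log2 fold change of 0.10 (SE 0.15).

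Dnajb9 and Edem1 are both known as outputs of the XBP1 arm in mouse cells, and their levels were set against each other within each library. The per-length ratio of Dnajb9 to Edem1 was 2.27, 1.99 and 3.33 in the Il1rnKO libraries, against 3.05, 4.33 and 3.64 in the WT libraries. The values of Il1rnKO 1 and 2 lay below every WT value, and that of Il1rnKO 3 lay between WT 1 and WT 3. The ratio was chosen with the members' values known and is given as a description.

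ATF4, the transcription factor translated when PERK or another stress kinase is active, and its targets were all negative among the 4 genes tested, with a median log2 fold change of -0.39 and no call. Atf4 had 341, 288 and 399 CPM in the Il1rnKO libraries, against 360.0, 448 and 427 CPM in the WT libraries. Il1rnKO 1 and 2 lay below WT 1 and Il1rnKO 3 lay between WT 1 and WT 3. Its fold change on the log2 scale was -0.26 (SE 0.17; 95% interval -0.65 to 0.12).

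Ddit3, which encodes the factor CHOP that is linked to cell death under lasting stress, had 21.7, 38.3 and 23.7 CPM in the Il1rnKO libraries, against 29.1, 51.1 and 30.2 CPM in the WT libraries. Replicate 2 was the highest library of each genotype, and the ranges overlapped. On the log2 scale the difference was -0.40 (SE 0.27; 95% interval -1.01 to 0.21), which was not detectable at this spread. Exons of Gm4189 and Mars overlap Ddit3 on the other strand, and Mars had 32.2 to 39.2 CPM in these libraries. Whether reads were counted by strand is not given, so the value of Ddit3 is uncertain. Ddit3 also has a second identifier in the table with 5 counts in all, which was left out.

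The remaining ATF4 targets had few counts. Trib3, a pseudokinase that acts back on ATF4 and CHOP, had 50, 20 and 49 estimated counts in the Il1rnKO libraries, against 64, 56 and 28 in the WT libraries. Asns, asparagine synthetase, had 23, 12 and 66 estimated counts in the Il1rnKO libraries, against 65, 38 and 39 in the WT libraries. Chac1, a glutathione-degrading enzyme, had 0, 0 and 0 estimated counts in the Il1rnKO libraries, against 10, 0 and 0 in the WT libraries, and a count of 0 allows up to 3 counts. Trib3 and Asns varied more between libraries of 1 genotype than between genotypes, with log2 fold changes of -0.37 (SE 0.52) and -0.54 (SE 0.66).

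**Figure D4:**
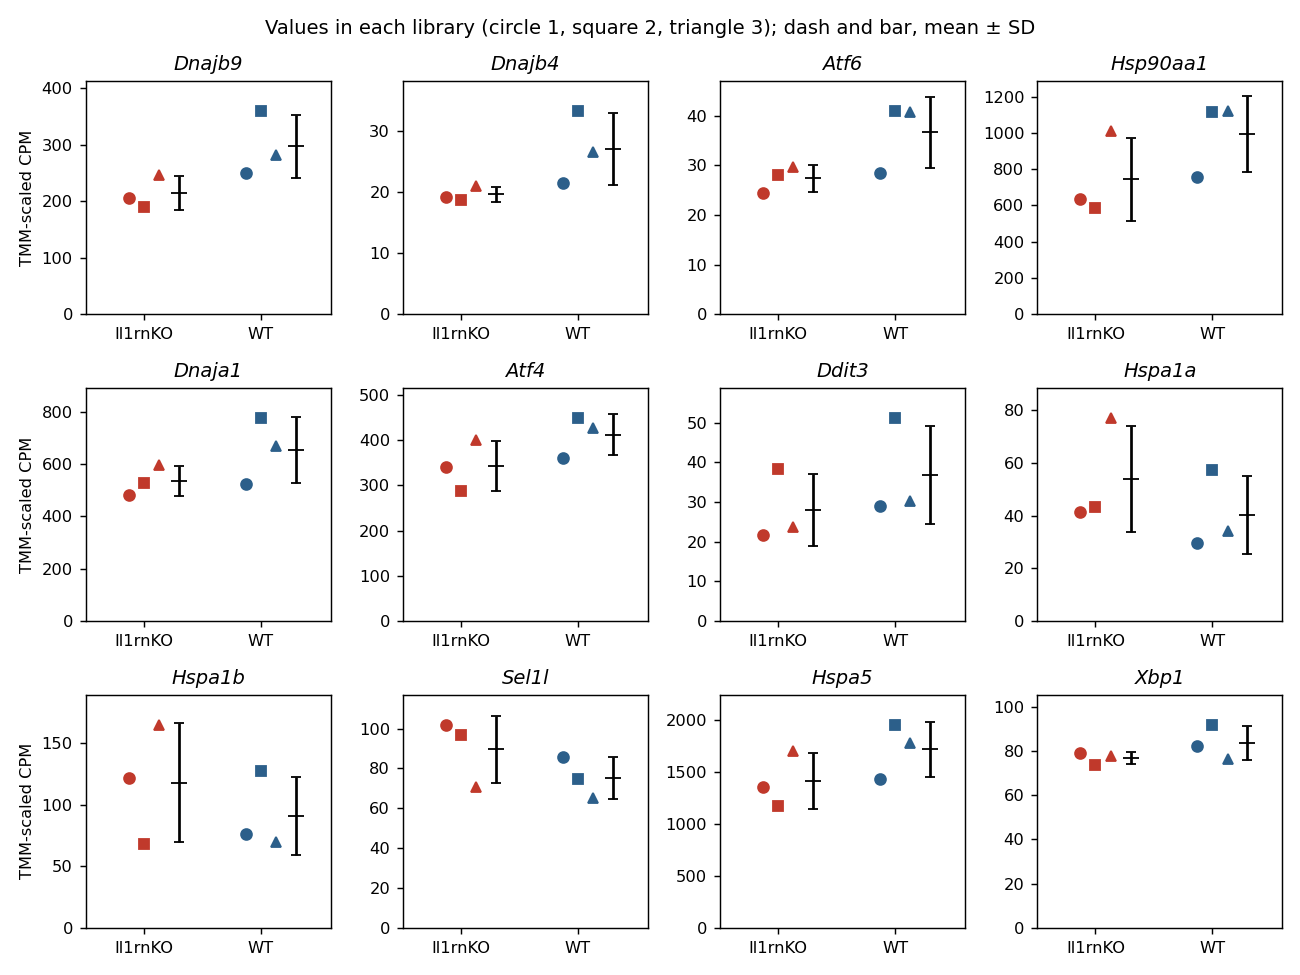
Level in every library, in CPM, of 12 of the genes given with per-library values, with Il1rnKO points left of WT points (circle, library 1; square, library 2; triangle, library 3), and a dash for the mean with a bar for the SD of 3 libraries. Dnajb9 and Dnajb4 have no overlap between genotypes, while Hspa1a and Hspa1b spread widely within each.

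The 10 cytosolic heat shock genes split evenly, with 5 positive and 5 negative fold changes and a median of -0.04 on the log2 scale, and none was called. They summed to 3859.6, 3682 and 4437 CPM in the Il1rnKO libraries, against 3983, 4768 and 4401 CPM in the WT libraries. Il1rnKO 1 and 2 again lay below every WT library, and Il1rnKO 3 exceeded WT 1 and WT 3. Hsf1, the transcription factor of the heat shock response, had 77.7, 68.0 and 56.2 CPM in the Il1rnKO libraries, against 69.4, 56.7 and 67.3 CPM in the WT libraries. Its ranges overlapped almost fully, with a log2 fold change of 0.06 (SE 0.17; 95% interval -0.31 to 0.43).

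Hsp90aa1, the stress-inducible cytosolic HSP90, had 637, 586 and 1008 CPM in the Il1rnKO libraries, against 754, 1112 and 1118 CPM in the WT libraries. Il1rnKO 1 and 2 lay below every WT library, and Il1rnKO 3 lay among them. Its log2 fold change was -0.42 (SE 0.25; 95% interval -0.97 to 0.13). It was -0.71 without Il1rnKO 3, with the lowest adjusted p of any member in any fit, 0.172, and -0.11 with the mitochondrial share as a covariate.

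Hsp90ab1, its constitutive relative, averaged 1233 ± 137 CPM in Il1rnKO and 1184 ± 144 CPM in WT, with a log2 fold change of 0.06 (SE 0.19). The per-length ratio of Hsp90aa1 to Hsp90ab1 was 0.350, 0.377 and 0.683 in the Il1rnKO libraries, against 0.434, 0.714 and 0.821 in the WT libraries. The ratio was lowest in Il1rnKO 1 and 2 and in WT 1 and highest in WT 3, and the genotypes overlapped. Of the 6 libraries, the 3 with the lowest ratios were also the 3 with the lowest mitochondrial shares, and the part of that share in the ratio was not tested.

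The inducible HSP70 genes Hspa1a and Hspa1b lie beside each other on chromosome 17, on the - strand, and are near copies, so reads can be shared or split between them and the value of either alone is uncertain. Their upstream windows, at chr17:34972157-34972406 for Hspa1a and chr17:34959239-34959488 for Hspa1b (GRCm38.p6), were identical at 247 of 250 positions and are shown with the 3 positions that differ in capitals.
Hspa1a upstream: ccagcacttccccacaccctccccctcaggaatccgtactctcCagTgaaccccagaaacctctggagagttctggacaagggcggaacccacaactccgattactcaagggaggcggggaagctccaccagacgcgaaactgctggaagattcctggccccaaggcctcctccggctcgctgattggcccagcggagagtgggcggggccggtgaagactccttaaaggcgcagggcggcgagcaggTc
Hspa1b upstream: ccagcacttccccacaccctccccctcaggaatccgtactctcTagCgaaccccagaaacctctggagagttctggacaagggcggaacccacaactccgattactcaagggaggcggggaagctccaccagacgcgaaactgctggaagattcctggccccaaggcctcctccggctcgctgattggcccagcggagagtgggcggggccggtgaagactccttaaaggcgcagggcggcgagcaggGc
Hspa1a had 41.6, 43.2 and 77.0 CPM in the Il1rnKO libraries, against 29.5, 57.3 and 34.3 CPM in the WT libraries. Hspa1b had 121, 67.9 and 165 CPM in the Il1rnKO libraries, against 76.0, 127 and 69.7 CPM in the WT libraries. Both were highest in Il1rnKO 3, and in WT cells both were highest in WT 2.

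Fold changes on the log2 scale were 0.42 (SE 0.29) for Hspa1a and 0.37 (SE 0.31) for Hspa1b, with intervals that reached past 2-fold. With the pair added together, the level was 163, 111 and 242 CPM in the Il1rnKO libraries, against 105, 185 and 104 CPM in the WT libraries. The sum had a log2 fold change of 0.39 (SE 0.29, edgeR adjusted p = 0.988), and Hspa1a took 25.5% to 38.9% of it in the 6 libraries. Cell handling is known to induce these genes, and the 14 immediate early genes, which respond to handling too, summed to 6673 to 9721 CPM in Il1rnKO and 7955 to 9432 CPM in WT. Of these 14, 8 had positive and 6 negative fold changes. Fosb was the 1 gene of them without overlap, beside 5.78% of all tested genes higher without overlap. It was higher in Il1rnKO at a log2 fold change of 0.52 (SE 0.21; edgeR, adjusted p = 0.988). The part of handling in the Hspa1a and Hspa1b values was not tested.

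Among the J-domain partners of HSP70, Dnajb4 was the second member with no overlap. It had 19.2, 18.7 and 20.9 CPM in the Il1rnKO libraries, against 21.5, 33.2 and 26.5 CPM in the WT libraries. The Il1rnKO libraries were close together and WT 1 lay just above them, while WT 2 and WT 3 were higher. The means were 19.6 ± 1.18 CPM in Il1rnKO and 27.1 ± 5.86 CPM in WT (SD, n = 3 each), and the log2 fold change was -0.46 (SE 0.20; 95% interval -0.90 to -0.03; edgeR, unadjusted p = 0.04, adjusted p = 0.988). Without WT 2 it was -0.29.

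Dnaja1, a J-domain partner of HSPA8, had 483, 529.7 and 596 CPM in the Il1rnKO libraries, against 524, 776 and 668 CPM in the WT libraries. Il1rnKO 2 and 3 exceeded WT 1, and no Il1rnKO library reached WT 2 or WT 3. Its log2 fold change was -0.29 (SE 0.19), with a 95% interval of -0.71 to 0.13. Exons of Smu1 overlap Dnaja1 on the other strand. Dnajb1, the inducible HSP40, averaged 143 ± 23.0 CPM in Il1rnKO and 156 ± 24.4 CPM in WT, with a log2 fold change of -0.13 (SE 0.17).

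Hspa8, the constitutive HSP70, averaged 913 ± 155 CPM in Il1rnKO and 1018 ± 97.6 CPM in WT, with a log2 fold change of -0.16 (SE 0.19). Hsph1, a nucleotide exchange factor of the HSP110 family, averaged 166 ± 33.4 CPM in Il1rnKO and 151 ± 23.5 CPM in WT, with a log2 fold change of 0.13 (SE 0.18). Replicate 2 was the highest library of each genotype for Hsph1. Both intervals stayed within 2-fold.

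The 3 mitochondrial chaperones had small negative fold changes, with a median of -0.12 on the log2 scale and no call. They summed to 351, 344 and 384 CPM in the Il1rnKO libraries, against 355, 427 and 408 CPM in the WT libraries. Il1rnKO 1 and 2 lay below all WT libraries and Il1rnKO 3 between WT 1 and WT 3. Hspa9, the matrix HSP70, averaged 167 ± 2.44 CPM in Il1rnKO and 189 ± 21.04 CPM in WT, with a log2 fold change of -0.18 (SE 0.14). Hspd1, the HSP60 ring of the chaperonin, averaged 153 ± 6.33 CPM in Il1rnKO and 166 ± 13.2 CPM in WT, with a log2 fold change of -0.12 (SE 0.14).

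Hspe1, the HSP10 lid that closes the HSP60 ring, averaged 40.0 ± 13.2 CPM in Il1rnKO and 40.8 ± 4.33 CPM in WT, and its log2 fold change of -0.03 (SE 0.22) turned to 0.24 with the mitochondrial share as a covariate. The promoter that Hspd1 shares with Hspe1 is shown from the Hspd1 side, on the - strand at chr1:55087933-55088182 (GRCm38.p6), with the shared heat shock element in capitals.
Hspd1 upstream: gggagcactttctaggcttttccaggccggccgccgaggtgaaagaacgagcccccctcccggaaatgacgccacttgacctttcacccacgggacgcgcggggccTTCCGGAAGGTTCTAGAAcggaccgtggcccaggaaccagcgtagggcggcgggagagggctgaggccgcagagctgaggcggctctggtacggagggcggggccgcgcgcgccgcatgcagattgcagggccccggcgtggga
The per-length ratio of Hspd1 to Hspe1 was 2.57, 2.59 and 1.61 in the Il1rnKO libraries, against 2.34, 2.33 and 2.16 in the WT libraries. It differed little among 5 libraries and was lowest in Il1rnKO 3. Exons of the pair overlap on opposite strands in the annotation.

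The wider pathways gave the same count of calls. Of 52 other ER folding and degradation genes, 49 were tested and 0 called by edgeR, DESeq2 or limma voom, with 20 positive and 29 negative fold changes and a median of -0.01 (log2). At an unadjusted p under 0.05 edgeR and DESeq2 counted 0 of them and limma voom 6, or 12.2% of the 49, beside its 12.1% of all tested genes. Ranges of the genotypes did not overlap for 5 genes higher in Il1rnKO (Hyou1, Ero1l, Fkbp2, Vcp and Ganab) and 1 lower (Stt3b). Over all tested genes, 5.78% were higher and 3.63% lower without overlap. The smallest p in edgeR belonged to Fkbp2, an ER prolyl isomerase, at 0.65 (SE 0.30), and Ero1l, the oxidase that recharges the disulfide isomerases, at 0.29 (SE 0.14), both log2 fold changes.

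Of 41 other ATF4 targets and stress kinases, 39 were tested and 0 called by the same tools, with 18 positive, 21 negative and a median log2 fold change of -0.03. At an unadjusted p under 0.05 edgeR counted 1 of the 39, beside 4.08% of all tested genes. DESeq2 counted 1 (2.56%, beside 3.49% of all genes it gave a p) and limma voom 3 (7.69%, beside 12.1%). Ranges did not overlap for 2 genes, both higher in Il1rnKO, beside 5.78% of all tested genes. Eif2ak2, which encodes the double-stranded RNA kinase PKR and acts on the same initiation factor as PERK, had 32.0, 29.7 and 25.4 CPM in the Il1rnKO libraries, against 16.6, 14.3 and 23.6 CPM in the WT libraries. All Il1rnKO values were above all WT values, and the log2 fold change was 0.68 (SE 0.22; edgeR, unadjusted p = 0.0102, adjusted p = 0.988). Mthfd2, a mitochondrial folate enzyme, had a log2 fold change of 0.29 (SE 0.15).

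Of 45 other cytosolic heat shock genes and co-chaperones, 44 were in the table, 39 were tested and 0 called by any of the 3 tools, with 11 positive and 28 negative fold changes and a median of -0.08 (log2). At an unadjusted p under 0.05 edgeR counted 3 of the 39 (1 higher and 2 lower), beside 4.08% of all tested genes. DESeq2 counted 3 (7.69%, beside 3.49% of all genes it gave a p) and limma voom 5 (12.8%, beside 12.1%). Ranges did not overlap for 2 genes higher and 2 lower in Il1rnKO, beside 5.78% and 3.63% of all tested genes. Bag3, a co-chaperone that links HSP70 to autophagy and is a known HSF1 target, had 33.0, 19.8 and 23.8 CPM in the Il1rnKO libraries, against 41.6, 48.4 and 32.0 CPM in the WT libraries. Il1rnKO 1 lay just above WT 3 and the other Il1rnKO values lay below all WT values. Ptges3, the HSP90 co-chaperone p23, had 117, 112 and 118 CPM in the Il1rnKO libraries, against 143, 143 and 144 CPM in the WT libraries, with no overlap and narrow spread within each genotype. Their log2 fold changes were -0.67 (SE 0.22) and -0.31 (SE 0.13). In edgeR both had an unadjusted p under 0.05 and an adjusted p of 0.988.

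All 17 other mitochondrial chaperones and proteases were tested, and 0 were called by any of the 3 tools. The fold changes were positive for 8 and negative for 9, with a median of -0.02 (log2). At an unadjusted p under 0.05 edgeR and DESeq2 counted 0, beside 4.08% and 3.49% of all genes they gave a p. Limma voom counted 1, or 5.88% of the 17, beside its 12.1% of all tested genes. The smallest p values in edgeR belonged to the inner membrane protease Yme1l1, with a log2 fold change of -0.31 (SE 0.19), and the intermembrane space protease Htra2, with -0.29 (SE 0.20).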

How the data were processed

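Poly(A)-selected RNA of 3 Il1rnKO and 3 WT libraries was sequenced in paired 150-base reads from a directional kit, per the labels' protocols. The authors deposited a table of estimated counts per gene, of which 20.66% of values had decimals. Per the submitters' processing notes, reads were placed on GRCm38. Not given in the sources used here are the aligner, the counting tool and whether strand was used. Antisense partners and near copies are therefore uncertain, and 11 of the 36 members overlap exons of a gene on the other strand.

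Identifiers were matched to GENCODE M21 symbols, 34582 of 34866, with 284 not matched. For Ddit3, the identifier with the longer exon model was used. Counts were rounded, filtered with filterByExpr (minimum count 10, minimum total 15) and fitted with edgeR 4.0.16 in R 4.3.3, using TMM scaling, the quasi-likelihood F test (two-sided) and Benjamini-Hochberg adjustment over 13374 genes at 0.05. CPM values were TMM-scaled, and per-length values were divided by the length of the exon union. The SE was the log2 fold change divided by the square root of F, and intervals covered 95%. Alternatives used DESeq2 1.42.0, limma 3.58.1 (voom with quality weights), other scalings and filters, a robust fit, the replicate block, the mitochondrial share as a covariate, removal of mitochondrially encoded genes, the Hspa1a and Hspa1b sum, and leaving out each library. The procedure was tested on simulated counts, drawn with the spread of each gene fitted to these data and with fold changes planted in some genes. The simulation held no shift in mitochondrial or ribosomal share between libraries, so it cannot show how the procedure handles one. Totals of 14102183 to 17677217 counts set the counting precision.

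Promoter windows came from RefSeq (GRCm38.p6), matched by symbol. Hsp90aa1, Hsp90ab1, Hspa8, Hsf1, Manf, Hspa9 and Atf6 had no window. Members and lists were chosen with earlier results of these data known. Every member is named. Per-library values are given for members without overlap, for the 10 with the smallest p, and for Hspa1a, Hspa1b, Hspa5, Xbp1, Ddit3 and Hsf1. In each list of other pathway genes, the rule named up to 4 genes that passed the test, or the 2 of smallest p where none did.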

Additional observations from a re-analysis of the deposited data

How the results depend on the processing

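No member was called under any of the 17 alternatives, and the lowest adjusted p of any member was 0.172 (edgeR, Hsp90aa1 without Il1rnKO 3). The number of genes called over the whole table was 7, and it was 25 with DESeq2, 11 with limma voom, 14 with the mitochondrial share as a covariate and 58 without a filter on low counts. It ran from 3 to 10 when 1 library was left out. With the replicate number as a block it was 11, with 0 members called. The numbers were not taken to pair the samples: same-numbered libraries correlated at 0.108, 0.053 and 0.116 after removal of group means, with every library best correlated with its own number, a hint from the data and not from the design.

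The sign of the log2 fold change held in all alternatives for 19 of the 35 tested members and changed for 16, and the cause was not tested. With the mitochondrial share as a covariate it turned for Ern1 (-0.14), Eif2ak3 (-0.24), Hsp90b1 (0.09), Sdf2l1 (0.10), Pdia3 (0.05), Pdia6 (0.15), Manf (0.22), Edem1 (-0.03), Hsf1 (-0.08), Hsp90ab1 (-0.06), Hspa8 (0.01), Hsph1 (-0.05), Dnajb1 (0.06) and Hspe1 (0.24). Leaving out 1 library turned it for 12 members, whose values ran from -0.04 to 0.39 for Ern1, -0.11 to 0.23 for Eif2ak3, -0.36 to 0.12 for Sdf2l1, -0.08 to 0.01 for Pdia3, -0.23 to 0.04 for Pdia6, -0.14 to 0.03 for Calr, -0.18 to 0.03 for Creld2, -0.27 to 0.10 for Manf, -0.08 to 0.17 for Hsf1, -0.06 to 0.12 for Hsp90ab1, -0.06 to 0.26 for Hsph1 and -0.34 to 0.09 for Hspe1. With 3 libraries a genotype, fold changes under 2-fold could not be told from the spread for Trib3 and Asns, which also had the fewest counts.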

Other observations

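The summed levels of ribosomal protein transcripts and of mitochondrially encoded transcripts differed among libraries of 1 genotype by more than the summed level of the 36 members did. Single members could vary more, as Asns did, from 0.769 to 4.09 CPM within Il1rnKO. The 24 ribosomal protein genes summed to 15797, 14244 and 32162 CPM in the Il1rnKO libraries, against 19754, 24552 and 32483 CPM in the WT libraries. The 13 mitochondrially encoded genes summed to 34655, 31195 and 88932 CPM in the Il1rnKO libraries, against 55118, 76445 and 97334 CPM in the WT libraries. Both sums were highest in Il1rnKO 3 within its genotype and in WT 3 within its own. The 8 naive T cell markers summed to 1768 to 2349 CPM in Il1rnKO and 1878 to 2665 CPM in WT, and the B cell markers to 142 to 163 CPM in Il1rnKO and 112 to 136 CPM in WT. Markers of CD8 T cells and NK cells summed to 13.5 to 27.5 CPM in Il1rnKO and 18.7 to 24.6 CPM in WT, those of macrophages and dendritic cells to 21.5 to 26.6 CPM in Il1rnKO and 7.82 to 16.0 CPM in WT and those of erythroid cells and platelets to 5.31 to 9.86 CPM in Il1rnKO and 3.41 to 4.94 CPM in WT. Their part in the chaperone values was not tested.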
